A study of Rattus norvegicus with 2 samples.

Results

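Rat chromosome 10 carried 1481 of the 17207 H2Aub peaks analysed here, counted outside a window expected to hold the HoxB genes. H2Aub is histone H2A with ubiquitin attached, and it was mapped by chromatin immunoprecipitation sequencing (ChIP-seq) in the myocardium of male rats after 30 min of ischemia, produced by tying off the left anterior descending (LAD) coronary artery. One ChIP library and 1 input library, both numbered replicate 1, were described, and the antibody against H2Aub was the only labelled difference between them. No sham sample was analysed here, whether the tissue came from 1 animal or from a pool was not stated, and tissue markers could not be read from a peak list. Members were selected by their position in the list of ChIP peaks, namely every interval on chromosome 10 that did not lie wholly between positions 84000000 and 84280000. This window held 78 further peaks. No window was left out on the other autosomes, so any Hox genes there stayed in their values. The strain and age of the rats were not given in the sources used here.

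The chromosome was itself chosen from measured values, because its number of peaks per Mb stood out among the chromosomes of this list. Its density is therefore given as a description, and the same holds for every measure taken from the same ChIP and input pair. With no replicates, intervals cover counting error within this pair of libraries only. Peaks that lie near one another share fragments and surroundings, which makes all intervals too narrow.

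Ubiquitin is attached to H2A by polycomb repressive complex 1, whose catalytic subunits are RING1A and RING1B, and is removed by deubiquitinases such as BAP1. The mark is best known from developmental genes that are kept silent, and the Hox clusters are textbook examples of it. Rat chromosome 10 shares long blocks of conserved gene order with human chromosome 17 and mouse chromosome 11, and it is known as a gene-rich chromosome. Gene positions were not joined to the peaks, since the submitters' notes name a human build while the list runs over chromosomes 1 to 20 and X, and no annotation of the build behind the list was used here. The identity of the window as HoxB was not checked for the same reason. Regions are given by their positions in the list, counted from 1.

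The peaks on chromosome 10 were spread from 998044 to 111033286. Over this span of 110.0 Mb the density was 13.5 peaks per Mb, with an exact 95% Poisson interval of 12.8 to 14.2. The other 19 autosomes together had 15485 peaks and 6.36 peaks per Mb (6.26 to 6.46), so chromosome 10 was 2.12 times as dense (2.01 to 2.23). Chromosome 12 had 13.8 peaks per Mb (12.8 to 14.8), and chromosomes 20 and 19 had 11.1 each. Once the window was set aside, chromosome 10 ranked behind chromosome 12, although the intervals overlapped from 12.8 to 14.2. With the 78 window peaks kept, the density was 14.2 (13.5 to 14.9). Peaks covered 6.52 kb per Mb of chromosome 10, 6.37 kb on chromosome 12 and 3.14 kb on the other autosomes together.

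At the edges of the window, the last peak before it ended at 83999447 with a fold enrichment of 3.72, and the first peak inside started at 84008029 with 5.79. The last peak inside ended at 84253082 with a fold enrichment of 4.03, and the first after it started at 84313172 with 4.96. Peaks inside the window were wider than those retained. Their median width was 617 bp and their median fold enrichment was 5.50, against 322 bp and 4.55 for the members.

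To see whether the high density was shared along the chromosome or came from a few places, peaks were counted in fixed bins of 1 Mb from position 0. Chromosome 10 filled 112 bins. The median bin held 9 peaks, the 25th percentile was 2, the 75th percentile was 18, and the fullest bin held 70. The order-statistic 95% interval of the median was 6 to 11 peaks. This was the highest median among the 20 autosomes. Chromosome 12 followed with 7 peaks and chromosome 20 with 4.5, while the median of the other autosomes pooled was 2. At least 10 peaks were found in 53 bins of chromosome 10, or 47.3% (95% Wilson interval 38.3 to 56.5%), compared with 37.7% on chromosome 12 (25.9 to 51.2%) and 19.4% on the other autosomes together (17.9 to 21%). These 53 bins contained 1302 peaks, 87.9% of the members.

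**Figure D1:**
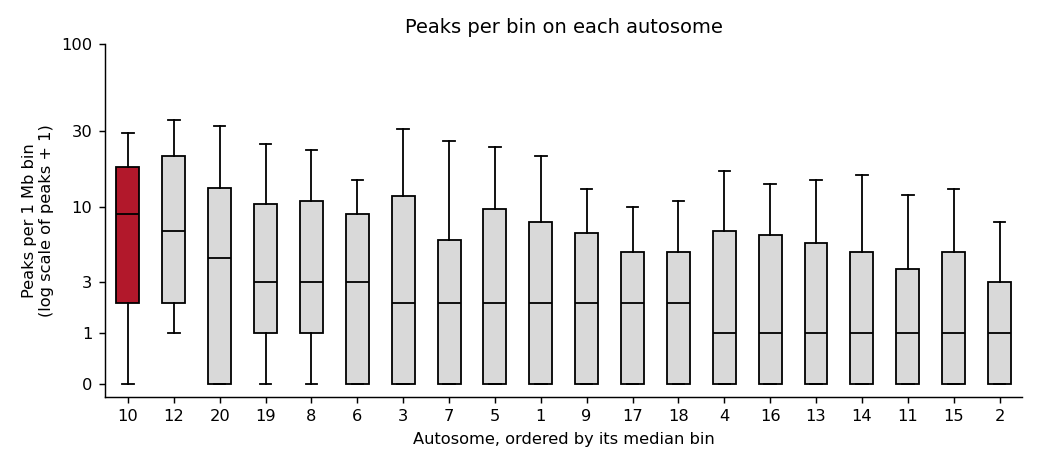
Peaks per 1 Mb bin on each autosome, on a log scale of the count plus 1, with autosomes ordered by their median bin. Boxes show the quartiles with the median as a line, whiskers run from the 10th to the 90th percentile of bins, and chromosome 10 is red. Its median of 9 peaks is the highest, followed by 7 on chromosome 12.

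Peaks were less concentrated on chromosome 10 than on most autosomes. The 12 fullest of its 112 bins held 592 peaks or 39.97% of the members. With the window peaks kept, the share was 42.0%. For the same proportion of bins, the share ran from 37.2% on chromosome 12 to 64.8% on chromosome 7, with a median of 54.0% over the other autosomes. When the fullest bins were set aside on every autosome, the remaining 100 bins of chromosome 10 still averaged 8.89 peaks, which is 2.63 times the 3.37 peaks of the remaining bins elsewhere. Only chromosome 12 was higher, with 9.68. No peak was found in 21 bins of chromosome 10 (18.8%, 12.6 to 27.0%), against 36.4% of bins on the other autosomes (34.5 to 38.3%). Chromosome 12 had 11.3% empty bins (5.29 to 22.6%) and chromosome 19 had 17.7% (10.2 to 29.04%), and both intervals overlapped that of chromosome 10.

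The fullest bins also stood high among all autosomal bins. Chromosome 10 makes up 4.30% of the 2602 autosomal bins. Of the 28 bins with at least 52 peaks, which is the fullest hundredth with ties, 7 were on chromosome 10 (25%, 12.7 to 43.4%), and no other autosome had more than 3. Of the 270 bins with at least 20 peaks, 26 were on chromosome 10 (9.63%, 6.66 to 13.7%), fewer than the 35 on the longer chromosome 3. The single fullest bin was not on chromosome 10, since a bin of chromosome 19 held 147 peaks.

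The bin from 106000001 to 107000000 was the fullest of chromosome 10, with 70 peaks (95% Poisson interval 54.6 to 88.4). It was followed by the bin from 103000001 to 104000000 with 61 peaks (46.7 to 78.4). The bins from 85000001 and from 109000001 each held 60 peaks, and the bin from 83000001 held 59, as did those from 86000001 and 108000001. The intervals of these 7 bins overlapped, so their order was not resolved. Together they contained 428 peaks, 28.9% of the members. Peaks covered between 25997 and 40533 bp of each of them, and the median fold enrichment per bin was between 4.40 and 4.77. The bin from 84000001 lost 0.28 Mb to the window and held 14 remaining peaks.

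**Figure D2:**
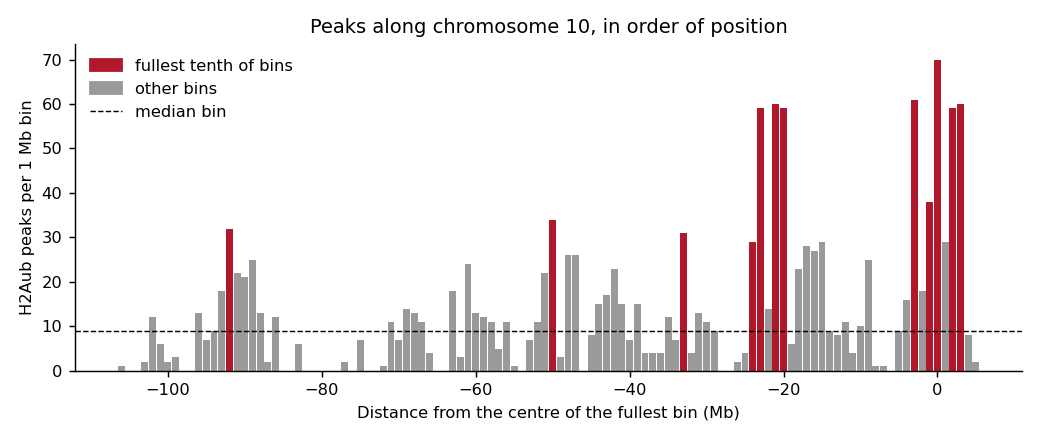
H2Aub peaks in each 1 Mb bin of chromosome 10 in order of position, plotted by distance in Mb from the centre of the fullest bin. Red bars are the 12 fullest bins, grey bars the other 100, and the dashed line marks the median bin of 9 peaks. Of the 12 fullest bins, 9 lie at the right, in 2 blocks, and the longest blank interval lies at the left.

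The bins were filled unevenly along the chromosome. The first 38 bins held 248 peaks, or 6.53 per bin (5.74 to 7.39), the next 37 held 421 peaks, or 11.4 per bin (10.3 to 12.5), and the last 37 held 812 peaks, or 21.9 per bin (20.5 to 23.5). These 3 counting intervals did not overlap, but they do not measure the spread between bins. Single bins held 0 to 32, 0 to 34 and 0 to 70 peaks in the 3 segments, with medians of 2, 11 and 13. The last 37 bins thus contained 54.8% of the members and 45 of the 71 runs described below. Of the 21 empty bins, 14 were among the first 38, 4 among the next 37 and 3 among the last 37. Full bins tended to lie beside full bins. Across 111 pairs of neighbouring bins the counts had a Pearson's r of 0.47 and a Spearman's rho of 0.53. These coefficients describe 1 library, and neighbouring bins are not independent. On the other autosomes the same r ran from 0.16 on chromosome 2 to 0.71 on chromosome 20, with a median of 0.41.

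Uninterrupted stretches of bins with at least 10 peaks each were then listed, a threshold set after the bin counts were seen. The longest stretch ran over 8 bins from 102000001 to 110000000. It held 351 peaks, 23.7% of the members, with between 16 and 70 peaks per bin. The second ran over 6 bins from 13000001 to 19000000 with 131 peaks, 13 to 32 per bin. The third ran over 5 bins from 82000001 to 87000000 with 221 peaks, and its lowest bin was the one shortened by the window. Chromosome 10 had 8 stretches of at least 3 bins, more than any other autosome, the next being chromosome 1 with 6. It did not have the longest one, which ran over 15 bins with 410 peaks on chromosome 5. The threshold lies just above the median bin of chromosome 10, which held 9 peaks. It was reached by 47.3% of bins there and by 19.4% on the other autosomes together. The number of stretches goes with that share and is not a separate result.

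Between some of these stretches lay blank bins, and between others only bins that held peaks, but fewer than 10. No peak was found in 5 consecutive bins from 24000001 to 29000000. The next 4 blank stretches by the fixed order were 2 bins each, starting at 1000001, 8000001, 21000001 and 32000001, and 2 more of the same length started at 41000001 and 78000001. The largest gap between neighbouring peaks ran from 23664580 to 29144369 and measured 5.48 Mb. The following gaps measured 3.24 Mb from 7201020, 3.13 Mb from 31418718, 2.87 Mb from 77918156 and 2.72 Mb from 20930049. The first and the fifth gap flanked a run of 6 peaks from 23654238 to 23664579, with a highest fold enrichment of 6.23, and these 6 were the only peaks listed between 20930049 and 29144369. Only 17 gaps exceeded 1 Mb, and they took up 32.7% of the span. On the other autosomes such gaps took up 56.5% of the span, with only chromosome 12 lower at 26.4%. Whether reads can be placed uniquely in these intervals was not tested.

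Spacing differed from the other autosomes pooled mainly at long distances, and there chromosome 10 was like several single autosomes. The median gap on chromosome 10 was 5.26 kb (95% interval 4.23 to 6.61 kb) and 7.14 kb on the other autosomes together (6.57 to 7.79 kb), and the 2 intervals met at their ends. It was 7.51 kb on chromosome 12 (5.60 to 9.75 kb), an interval that overlapped that of chromosome 10. Short gaps were as frequent as elsewhere, since 29.9% of gaps were at most 1 kb (27.6 to 32.3%) against 29.1% on the other autosomes (28.4 to 29.9%). Gaps over 100 kb made up 14.8% (13.1 to 16.7%) against 21% elsewhere (20.3 to 21.6%). The 75th percentile was 40.1 kb on chromosome 10 and 68.9 kb elsewhere, and the 90th percentiles were 175.8 and 318.5 kb. Gaps over 100 kb were similarly few on chromosomes 20 (13.5%), 7 (15.2%), 19 (15.2%) and 12 (15.3%), and the 75th percentiles of these 4 lay between 39.8 and 45.5 kb. The scarcity of long gaps was therefore not particular to chromosome 10. Correspondingly, 55 members had no other peak within 100 kb on either side, or 3.71% (2.86 to 4.80%), against 8.64% on the other autosomes (8.21 to 9.09%). These 55 peaks had a median width of 272 bp and a median fold enrichment of 4.13.

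The density was then divided into the number of groups and the number of peaks in a group, where a group is a set of peaks separated by at most 10 kb. Chromosome 10 had 629 groups, or 5.72 groups per Mb, which is 1.92 times the 2.97 groups per Mb of the other autosomes (1.78 to 2.08). Each group held 2.35 peaks on average against 2.14, a ratio of 1.1. The 2.12-fold density of peaks was thus mostly a 1.92-fold density of groups, with a small contribution from fuller groups. Lone peaks made up 22.2% of the members and 28.2% of the peaks on the other autosomes.

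Groups of at least 5 peaks were termed runs. Chromosome 10 had 71 runs, which contained 572 peaks or 38.6% of the members (36.2 to 41.1%). On the other autosomes runs contained 34.3% of peaks (33.5 to 35.0%). The share was higher on chromosomes 14 (43.2%), 19 (39.5%) and 2 (39.4%), so a high share was not particular to chromosome 10. The number of runs was the highest of any autosome at this gap of 10 kb, ahead of 70 on chromosome 3, and it ranked 3 with gaps of 5 or 20 kb. The density of runs was 0.645 per Mb, 2.64 times that of the other autosomes (2.06 to 3.33). Chromosomes 12 and 19 came nearer to it, with 0.532 and 0.476 runs per Mb. The median run held 6 peaks over 15.8 kb, and 18 runs held at least 10 peaks. The share of a run's length that its peaks covered had a median of 22.2% and ranged from 4.99 to 71.8%. The largest run outside the window held 22 peaks, whereas the largest on any other autosome held 90, on chromosome 7. These 2 sizes are not like for like, because any Hox cluster on chromosome 7 was kept.

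The run with most peaks lay from 85463874 to 85533616. Its 22 peaks covered 17734 bp of 69.7 kb, and their median width was 449.5 bp. A fold enrichment of 5 was reached by 8 of them, and by 30.5% of all listed peaks. Next were 3 runs of 19 peaks each. The run from 83390314 to 83443138 was covered over 18.99% of 52.8 kb, the run from 86267895 to 86306450 over 27.6% of 38.6 kb, and the run from 109412172 to 109460459 over 23.6% of 48.3 kb. The fifth run, from 108144322 to 108176833, was shorter and much more densely covered. Its 17 peaks took up 54.8% of 32.5 kb, with a median gap of 531 bp and a median fold enrichment of 5.79, and 11 of the 17 reached a fold enrichment of 5. All 5 runs lay in the last 37 bins.

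**Figure D3:**
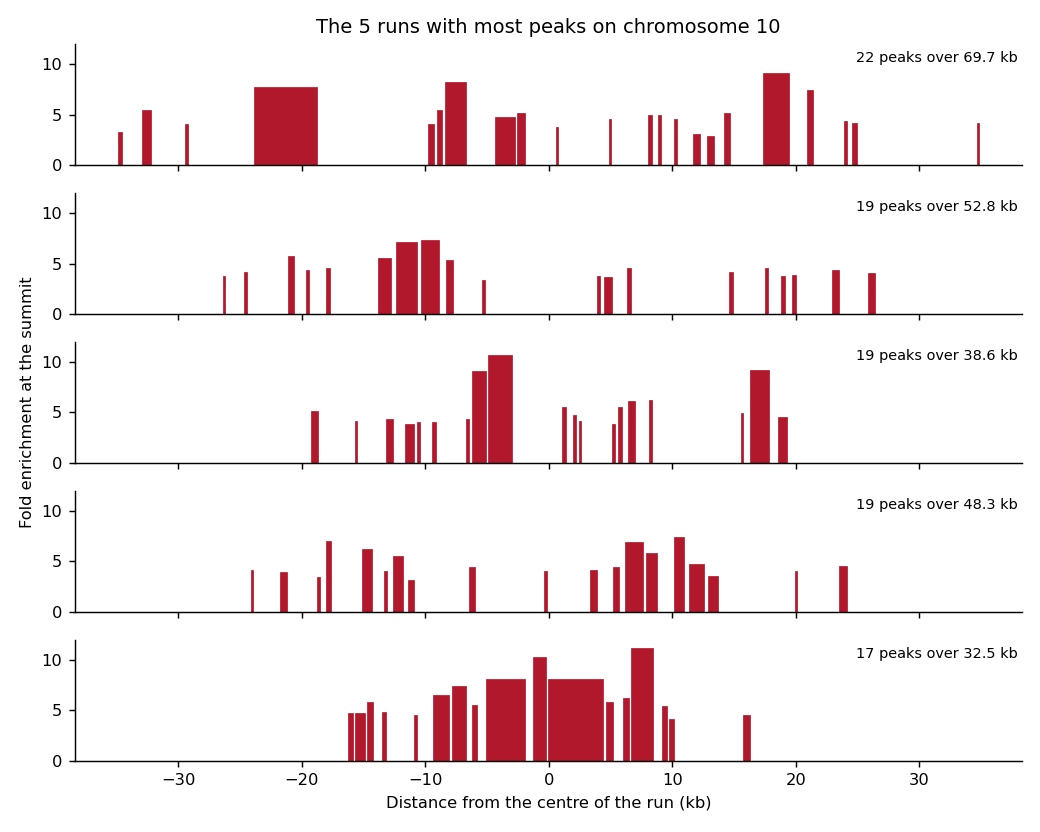
The 5 runs with most peaks on chromosome 10, each drawn to scale by distance in kb from its centre. Each bar is 1 peak with its listed width, and its height is the fold enrichment at the summit. In the first run, which is 69.7 kb long, most peaks are narrow and stand apart, whereas peaks of the fifth take up 54.8% of 32.5 kb.

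As listed, the peaks themselves were like those of the other autosomes in width. The median width was 322 bp (95% interval 311 to 334 bp) against 333 bp (329 to 336 bp), with quartiles of 237 and 531 bp against 239 and 522 bp. At least 1000 bp were spanned by 135 members, or 9.12% (7.75 to 10.7%), against 8.54% elsewhere (8.11 to 8.99%). The smallest listed width of 200 bp was shared by 174 members, 11.7% against 12.1%. Widths on chromosome 12 were close to these as well, with a median of 331 bp (316 to 344 bp). By median width chromosome 10 ranked 17 from the highest of the 20 autosomes. That rank depended on the processing and lay between 6 and 17 under 7 alternatives. It was 6 with intervals at most 1000 bp apart merged, at 353 bp against 400.5 bp on chromosome 2, the highest.

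Strength was also alike, as far as these values can tell. The authors' fold enrichment is the ChIP pileup at the summit divided by the local background, each with 1 added. Its median was 4.55 on chromosome 10 and on the other autosomes, and the quartiles were 4.03 and 5.37 in both. Values of 5 or more were found at 462 members, 31.2% (28.9 to 33.6%), against 30.5% of all listed peaks. Values of 10 or more were found at 9 members, 0.608% (0.320 to 1.15%), against 0.564% of all listed peaks. Both shares were near those of the whole list, and nothing is read from them. Wider members had higher fold enrichment, with a Spearman's rho of 0.395 across the 1481 peaks and 0.378 across the 15485 others, where peaks are not independent replicates. Width and fold enrichment were read from the same called interval, so peak calling itself can tie them. How much of the relation it makes was not tested.

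**Figure D4:**
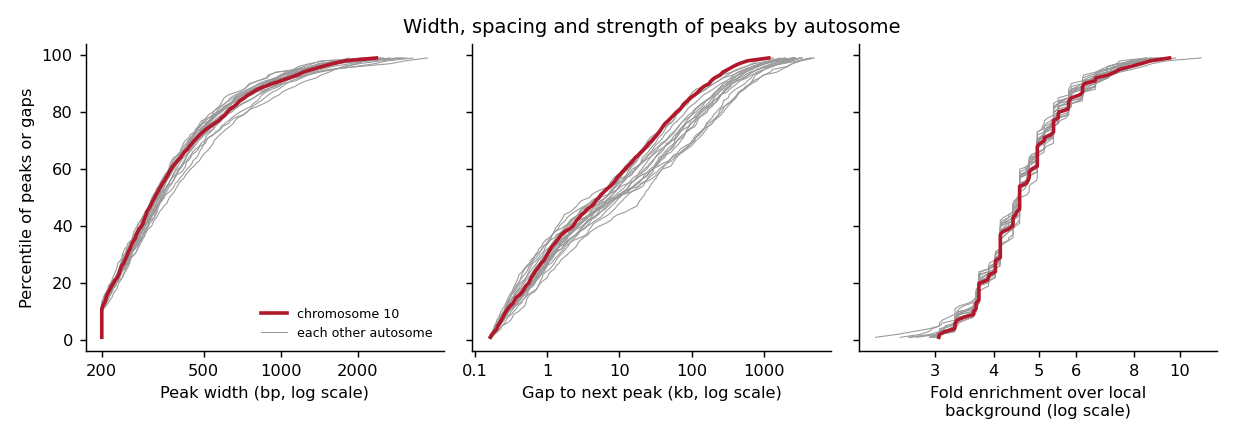
Percentiles of peak width in bp, of the gap to the next peak in kb, and of fold enrichment over the local background, all on log scales, for chromosome 10 (red) and for each other autosome (grey). Curves of width and fold enrichment lie among those of the other autosomes, with medians of 322 bp and 4.55, while the curve of gaps lies at the short end at long distances, with a 90th percentile of 175.8 kb next to 177.6 kb on chromosome 19 and 167.4 kb on chromosome 12.

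Fold enrichment and p-value together gave the whole number of fragments stacked at a summit. The median member had 11 fragments, with quartiles of 10 and 13, and the other autosomes had the same 3 values. At most 9 fragments were found at 23.2% of members and at most 20 at 96.4%. An exact Poisson interval for 11 fragments runs from 5.49 to 19.7, which at the genome-wide background of 1.42 fragments gives fold enrichments of 2.68 to 8.55. Most differences in fold enrichment between single members were therefore not resolved at this depth. With 3 fragments removed from each summit, 35.9% of members (33.5 to 38.3%) fell below the weakest listed p-value, against 35.7% on the other autosomes (34.9 to 36.5%).

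The input behind the peaks was low on chromosome 10, as on most autosomes. The local background was at the genome-wide floor for 714 members, 48.2% (45.7 to 50.8%), against 47.0% elsewhere (46.2 to 47.8%). It was at most 2 times the floor for 96.6% of members and for 94.4% of peaks on the other autosomes. Only 1 member had a background of more than 10 times the floor, the peak from 44825127 to 44825331, where 80 fragments were stacked over a background of 26.8 for a fold enrichment of 2.92. This was 0.0675% of members, against 128 peaks or 0.827% on the other autosomes. Such low counts were not particular to chromosome 10, since chromosomes 3, 11, 15 and 17 had 0 and chromosome 12 had 1.

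Peaks in crowded places were somewhat wider. Peaks of the 12 fullest bins had a median width of 351 bp (328 to 378 bp), compared with 306 bp (295 to 319 bp) in the other 100 bins. The median fold enrichment was 4.55 in both, a value shared by many peaks. Values of 5 or more were found at 34.5% (30.7 to 38.4%) and 29.02% (26.1 to 32.1%). The share of peaks at the background floor was 45.3% (41.3 to 49.3%) in the fullest bins and 50.2% (46.9 to 53.4%) in the others. On the other autosomes the same split gave 345 bp (339 to 350 bp) and 322 bp (317 to 326 bp). Inside runs the differences were larger, with a median fold enrichment of 4.75 against 4.55 outside runs, a median width of 370.5 bp (347 to 395 bp) against 299 bp (292 to 311 bp), and 39.0% (35.1 to 43.0%) against 26.3% (23.5 to 29.2%) with a fold enrichment of 5 or more. Intervals that lie close together can be parts of 1 wider domain split by the peak caller, which was not tested. Across the 70 bins with at least 5 peaks, the number of peaks had a Spearman's rho of 0.36 with the median width (Pearson's r = 0.06), 0.0047 with the median fold enrichment (r = -0.04) and 0.26 with the mean local background (r = 0.14).

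Along the chromosome the median width was 297 bp (276 to 325 bp) in the first 38 bins, 309 bp (292 to 333 bp) in the next 37 and 336 bp (319 to 355 bp) in the last 37. The median fold enrichment was 4.55 in each, a value shared by so many peaks that equal medians say little. Values of 5 or more were found at 26.6% (21.5 to 32.4%), 31.4% (27.1 to 35.9%) and 32.5% (29.4 to 35.8%), and these 3 intervals overlapped. Between the first and the last of these 3 segments, peaks per bin rose from 6.53 to 21.9, while median width went from 297 to 336 bp. The width intervals of the first and the last segment overlapped from 319 to 325 bp.

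The widest member, from 18123644 to 18134325, measured 10682 bp and was also the widest in the whole list. Its summit lay 5.57 kb from its start, with 30 fragments (20.2 to 42.8) over a background of 1.73 and a fold enrichment of 11.4. It did not lie in a run. Its group held only 2 other peaks, a 513 bp peak 0.246 kb before it and a 200 bp peak 0.278 kb after it, with fold enrichments of 4.55 and 3.72. The wide peak alone made up 89.6% of the group's 11.9 kb. It lay in a bin of 13 peaks, whereas the other 4 of the 5 widest lay in bins of 59 or 60 peaks.

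The peak from 85474861 to 85480001 measured 5141 bp with a fold enrichment of 7.70, less than the widest member in both, and lay in the run of 22 peaks. The peaks from 108160483 to 108164975 and from 108197213 to 108201091 measured 4493 and 3879 bp, and both had 28 fragments over a background of 2.59 and a fold enrichment of 8.08. The peak from 83821103 to 83824759 measured 3657 bp and 35 fragments (24.4 to 48.7) gave it a fold enrichment of 10.0. It lay in a run of 5 peaks from 83820107 to 83830250, each with a fold enrichment of at least 5.79, of which peaks covered 64.3%.

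The highest fold enrichment on chromosome 10 was 12.4, at the peak from 82195297 to 82197976, where 29 fragments (19.4 to 41.6) were stacked over the background floor. It stood alone, 55.6 kb after the previous peak and 544 kb before the next. Each of the next 4 members by fold enrichment had a neighbour within 1 kb. Further down, the peak from 67862336 to 67863410, with a fold enrichment of 10.7, also stood alone, with gaps of 183 and 311 kb. The widest member came second. Behind it, 2 peaks shared a fold enrichment of 11.2 and 26 fragments (17.0 to 38.1), from 91044733 to 91047410 in a run of 6 peaks and from 108167235 to 108169008 in the run of 17 peaks. The fifth, from 73286591 to 73287593, had 25 fragments (16.2 to 36.9), a fold enrichment of 10.7, and a place in a run of 14 peaks. The pileup intervals of these 5 peaks overlapped, so their order was not resolved. When members were ranked by −log10 q, 4 of the same 5 peaks were among the first 5, and the peak from 83821103 took the place of that from 73286591. The highest −log10 q was 23.6.

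One bin departed from the rest in the kind of its peaks, and was singled out after its values were seen. The bin from 71000001 to 72000000 held 12 peaks with a median width of 1450 bp and a median fold enrichment of 6.78. Among the other 52 bins with at least 10 peaks, the highest medians were 603 bp and 5.37. Of its 12 peaks, 7 were at least 1000 bp wide (58.3%, 32.0 to 80.7%). They lay in 2 places. In the first, 4 peaks lay between 71158409 and 71165136, the widest of 2391 bp with a fold enrichment of 8.44. In the second, a run of 7 peaks from 71840401 to 71853865 was covered over 71.8% of 13.5 kb, the highest coverage of any run on chromosome 10. Its 5 widest peaks measured between 1429 and 2649 bp, and 4 of these had fold enrichments between 8.27 and 9.79. The remaining peak of the bin stood apart, from 71928098 to 71928409, with a fold enrichment of 3.67.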

How the data were processed

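ChIP and input libraries of rat myocardium were described by the labels, and 1 peak list of the ChIP library was analysed. Per the labels, the submitters' processing notes name bcl2fastq 2.17, Trimmomatic 0.33, Bowtie 1.1.2 and MACS2 2.1.0, and the build hg38, which is human and does not match the chromosomes of the list. Parameters, duplicate removal and read totals were not given in the sources used here. The deposited values are a linear fold enrichment (ratio), a −log10 p and a −log10 q of each summit, and a score that follows from the −log10 q. The smallest −log10 q was 1.30. From the narrowPeak layout, starts were converted to 1-based positions.

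Pileup and background of each summit were solved from fold enrichment, as (pileup + 1) / (background + 1), and the Poisson p-value, with whole pileups up to 4000 and a tolerance of 0.002 in −log10 p. All 17207 peaks were solved, against 29 without the pseudocount of 1. The solver was tested on simulated data. Bins took a peak by its midpoint and ended with the bin of the last peak. Gaps were measured between interval ends and not across the window. Poisson intervals are exact, shares carry Wilson intervals, and medians carry order-statistic intervals, all at 95%. No test between groups was possible. The named regions were the 5 fullest bins, longest blank stretches, widest peaks, highest fold enrichments, highest −log10 q, fullest runs and largest gaps, with ties by lower position. Members, bins and lists were chosen with earlier results of these data known. Alternatives covered thresholds, merging, input-rich peaks, the window, summit depth, bins and run gaps. Python 3.11.15, NumPy 2.4.6, pandas 2.3.3 and SciPy 1.17.1 were used.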

Additional observations from a re-analysis of the deposited data

How the results depend on the processing

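The density of chromosome 10 stayed above that of the other autosomes together under each of the 10 alternatives tried for it, by 1.92 to 2.63 times (2.12 as reported). It ranked first among autosomes in 5 of these and second in the other 5. The ratio was 2.23 with q of at most 1e-05 and likewise 2.23 with the window kept. It was 2.63 without the fullest bins and 1.92 with groups counted once, 2 alternatives chosen after seeing the data. The median per bin was the highest in all 10 alternatives tried for it, in 4 of them level with chromosome 12. Of 70 alternative values over all results, 33 stayed within their counting interval or, for the number of runs, within 1.5 times the reported 71. The latter include 51 runs with a gap of 5 kb and 78 with 20 kb, where chromosome 10 ranked 3 among autosomes, against 1 as reported. Its rank was also 3 with q of at most 0.001 and with 3 fragments removed, 4 at a fold enrichment of 5 or more and 6 with q of at most 1e-05.

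Thresholds moved most of the others. With q of at most 0.001, the median bin held 5 peaks, width was 372 bp, gap 8.75 kb, fold enrichment 4.96, and 39 runs were found. With q of at most 1e-05, the median bin held 2 peaks, 36.0% of bins were empty, the fullest held 46.8% of peaks, width was 663.5 bp, gap 26.0 kb, fold enrichment 6.20, with 9 runs. At a fold enrichment of 5 or more, the values were 2 peaks, 33.9% empty, 45.7% in the fullest bins, 574 bp, 25.6 kb, 5.87 and 11 runs. With 3 fragments removed from each summit, they were 5 peaks per median bin, 372 bp, 8.86 kb, 4.96 and 38 runs. Merging intervals at most 1000 bp apart gave 353 bp, 18.4 kb and 29 runs. Bins of 0.5 Mb gave a median of 3 peaks, 29.6% empty and 44.9% in the fullest, and bins of 2 Mb gave 17.5 peaks, 8.93% and 35.2%. These shifts follow from dropping or joining peaks, or from the bin size. No paired test was possible because the ChIP and the input were single libraries without replicates.

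Limits are the single pair of libraries, summits of about 11 fragments, and peaks without gene names. Background other than through the input, such as how many reads can be placed in a region, was not tested.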
